A study of Arabidopsis thaliana with 2 samples.

Results

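The histone genes of Arabidopsis thaliana were examined in rosettes by RNA sequencing, as 38 genes in 9 classes out of 23147 genes listed in either library. The members were chosen by locus identifier as genes for the linker histone H1 and for H2A, H2B, H3 and H4 with their variants, a rule that uses no measured value, although earlier results of these data were known when it was written. They comprise 24 replication-dependent genes (8 for H4, 5 for H3.1, 4 for H2A and 7 for H2B), 11 variant genes (3 for H3.3, 2 for H2A.X, 3 for H2A.W and 3 for H2A.Z) and 3 genes for H1. These groups follow the histone class of each gene, and no cell cycle data of single genes were used. Counting H2A.X and H2A.W as variants was a choice made here. The series holds 2 libraries, 1 per genotype, both from untreated Col-0 plants harvested at 28 days. The C3A library comes from plants that lack functional PBL19, a receptor-like cytoplasmic kinase, and that carry PBL19 with cysteine 3 replaced by alanine, fused to GFP and HA and expressed from the promoter of PBL19. The other library comes from wild type plants. The sources used here do not say how many plants or transgenic lines a library holds. A transgenic line that carries unchanged PBL19 was not analysed here. Effects of losing native PBL19, of the altered cysteine, of the tags and of the transgene level therefore cannot be told apart. With 1 library per genotype no difference has a replicate check or a test, and every interval given is a 95% interval for counting error only.

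Histones package nuclear DNA. Pairs of H2A, H2B, H3 and H4 form the core around which DNA is wound, and H1 binds the linker DNA between cores. Replication-dependent histones, among them H3.1, are made mainly in S phase, when new DNA has to be packaged, and their transcript levels are widely used as a sign of dividing cells. Variants such as H3.3 and H2A.Z are also made outside S phase and replace the replication-dependent forms at particular sites. In plants H3.3 is found mainly over transcribed genes, H2A.Z over genes and their starts, H2A.W over heterochromatin, and H2A.X is phosphorylated at DNA breaks.

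The C3A library held 12001808 estimated counts over 22564 listed genes, and the wild type library 11937705 counts over 22310 genes. PBL19 (AT5G47070) was at 466 FPKM in the C3A library, against 6.68 FPKM in the wild type, where FPKM is a count adjusted for the length of the gene and the size of the library. The leaf genes RBCS1A, LHCB1.3 and CA1 were abundant in both libraries and lower in C3A, at 8375, 15592 and 755 FPKM in C3A against 12729, 23517 and 2172 FPKM in the wild type. The root genes PIN2, EXPA7 and IRT1 were at 3.87, 1.95 and 6.42 FPKM in C3A against 10.09, 5.59 and 18.8 FPKM in the wild type. The 100 most abundant genes took 21.0% of the C3A counts and 28.2% of the wild type counts. Apart from a rescaling without the 100 most abundant genes, given below, the part of these differences in the histone values was not tested.

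All 38 histone genes were listed in both libraries and passed the filter of at least 1 FPKM in either. Of these genes, 36 were higher in C3A and 2 were lower, whereas 61.7% of the 19527 genes that passed the filter were higher. A level at least 1.5-fold higher in C3A, on the scale of FPKM + 1, was found for 30 of the 38 members (78.9%), against 18.6% of all genes. At least 2-fold higher were 5 members (13.2%), against 7.89% of all genes. No member was at least 1.5-fold lower, against 8.9% of all genes, and so none was at least 2-fold lower, against 2.85%. The median log2 ratio was 0.73 over the members and 0.14 over all genes, whose middle 50% ran between -0.19 and 0.46. The histone difference was thus broad and moderate, with nearly every gene higher in C3A and few past 2-fold. Counting intervals of the ratio lay wholly above 1 for 36 members and wholly below 1 for the other two, HTR4 and HTA12, where 38.5% and 20.1% of 19408 genes with counts in both libraries did so. For HTA12 this call rests on deposited lengths that differ between the libraries, and on counts alone its interval (0.696 to 1.02) holds 1.

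The median FPKM ratio over all genes was 1.12, so part of each ratio is shared with most of the transcriptome. After rescaling to a median ratio of 1, 36 members still lay above 0, against 50.2% of all genes. After this rescaling 16 members (42.1%) were at least 1.5-fold higher, against 13.2% of all genes, and 1 member, HTR13, was at least 2-fold higher, against 6.14% of all genes. No member was then at least 1.5-fold or 2-fold lower, against 12.7% and 3.96% of all genes. When the scaling left out the 100 most abundant genes, 20 members were at least 1.5-fold higher, against 14.8% of all genes. In expected counts, the 38 genes together took 0.357% of the C3A library and 0.229% of the wild type library, a ratio of 1.56 (1.53 to 1.58). In rosettes, more cells of a dividing type and more histone RNA per cell cannot be told apart.

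**Figure D1:**
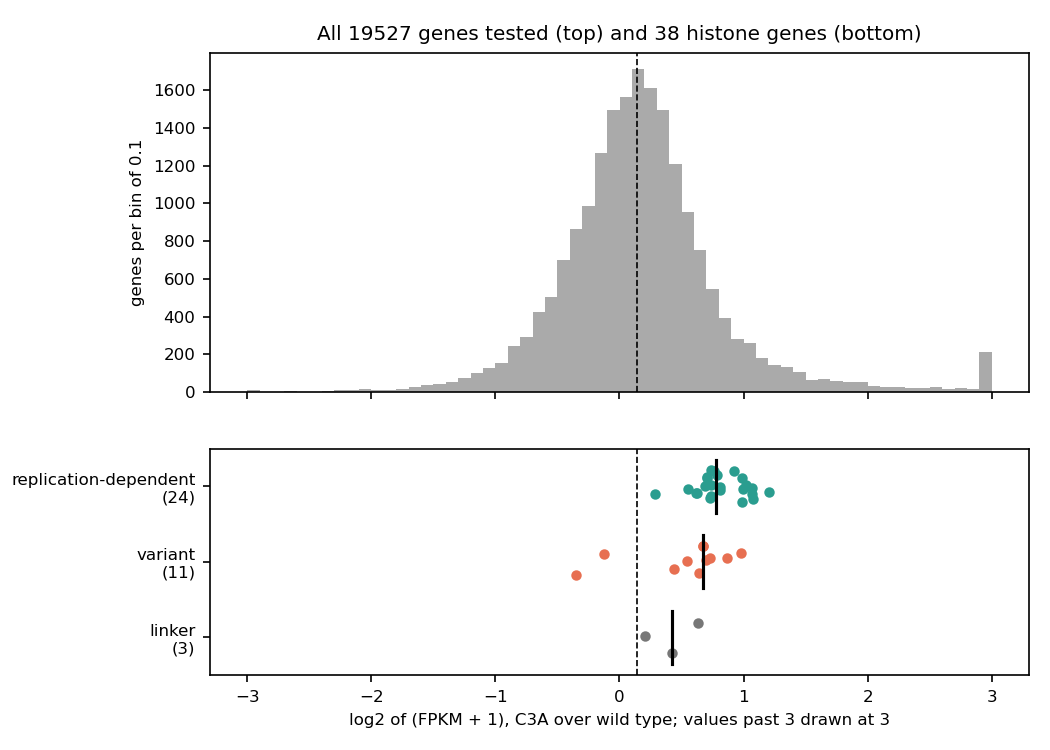
Distribution of the log2 C3A to wild type ratio on the FPKM + 1 scale over all 19527 genes tested (upper panel, genes per bin) and for each of the 38 histone genes (lower panel, 1 point per gene, vertical placement within a row random, bars at the row medians of 0.78 for replication-dependent, 0.67 for variant and 0.42 for linker genes). The dashed line is the median of all genes, 0.14, and 2 variant points lie left of 0.

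**Figure D2:**
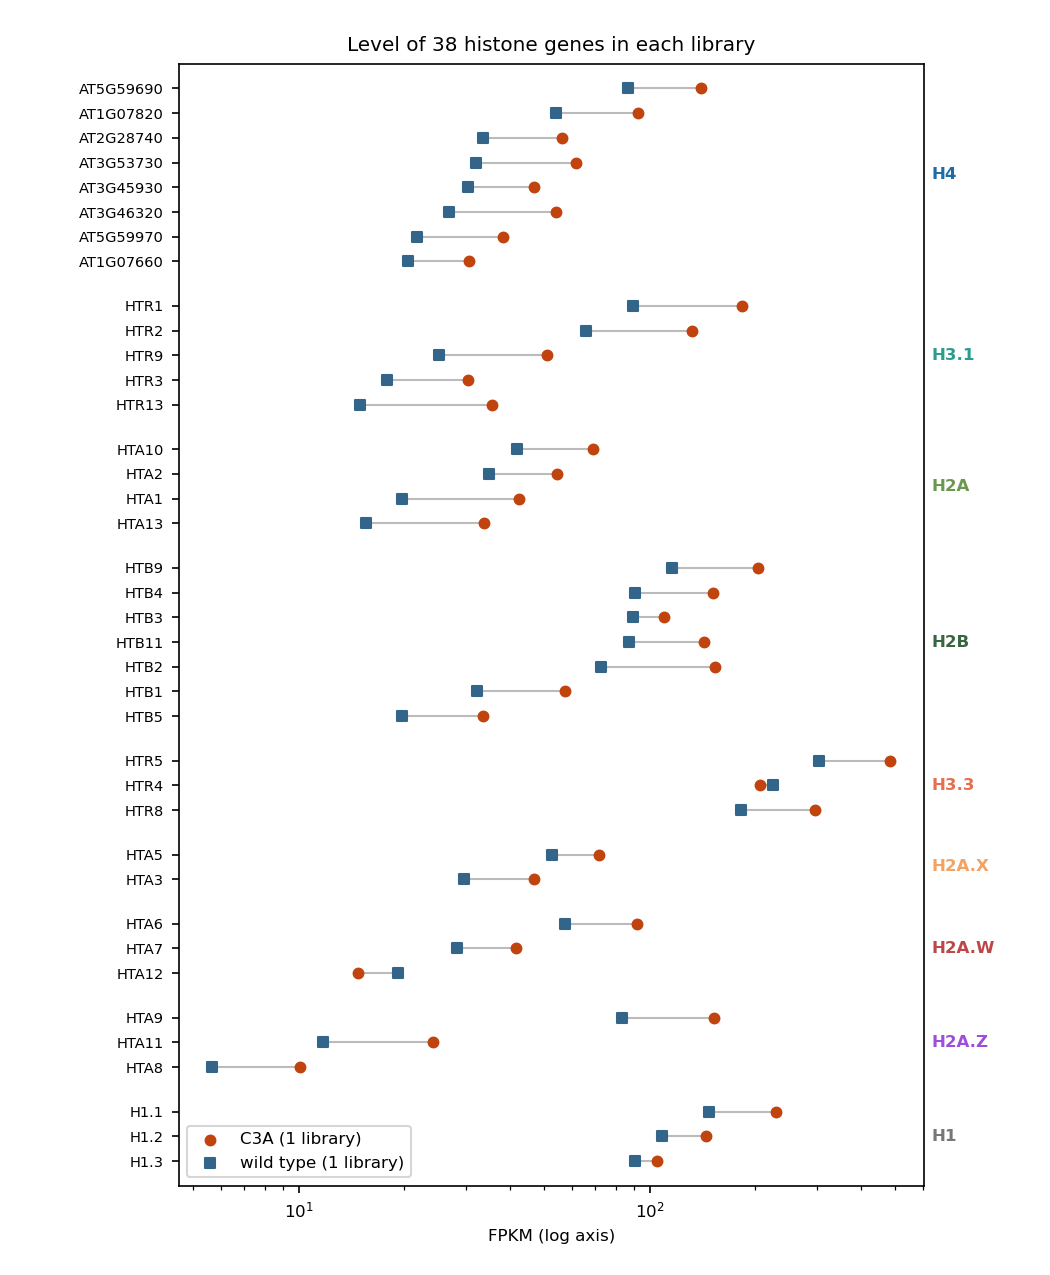
Level of each of the 38 histone genes in FPKM on a log axis, grouped by class, with 1 circle for the C3A library and 1 square for the wild type library. The C3A circle lies right of the wild type square for every gene except HTR4 and HTA12.

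H3.1 was the class with the highest median ratio of the 9. All 5 H3.1 genes were at least 1.5-fold higher in C3A, where 18.6% of all genes were. Their median log2 ratio was 0.99, and their summed level was 432 FPKM in C3A against 214 FPKM in the wild type. HTR1 (AT5G65360), which gave 42.4% of H3.1 in C3A and 42.05% in the wild type, was at 183 FPKM from 1547 counts in C3A and 89.8 FPKM from 756 counts in the wild type, a ratio of 2.03 (1.86 to 2.22). HTR2 (AT1G09200) followed at 132 FPKM in C3A and 65.9 FPKM in the wild type, a ratio of 2.0 (1.81 to 2.21). Their shares of the class were thus much alike in both libraries. HTR13 (AT5G10390; chr5:3268847-3269594, minus strand, TAIR10.1) had the highest ratio of all 38 members, 2.39 (1.93 to 2.97), at 35.6 FPKM in C3A and 14.9 FPKM in the wild type. HTR9 (AT5G10400), which lies 577 bases away on the same strand, was at 50.95 FPKM in C3A and 25.2 FPKM in the wild type. HTR3 (AT3G27360) had the lowest ratio of the class, 1.70 (1.41 to 2.06), at 30.3 FPKM in C3A and 17.8 FPKM in the wild type. HTR3 overlaps AT3G27380 on the same strand and had fractional counts, so its reads may be divided with that gene. HTR9 also had fractional counts, 470.76 in C3A and 231.11 in the wild type. Its ratio may thus also depend on how shared reads were divided, and with which gene was not tested.

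H3.3, the replacement form of H3, was the most abundant class by summed FPKM and split by gene. HTR5 (AT4G40040) was at 484 FPKM from 6223 counts in C3A and 303 FPKM from 3872 counts in the wild type, a ratio of 1.60 (1.54 to 1.66). HTR8 (AT5G10980) was at 296 FPKM in C3A and 182 FPKM in the wild type, a ratio of 1.63 (1.53 to 1.73). HTR4 (AT4G40030) instead was at 207 FPKM from 2315 counts in C3A and 225 FPKM from 2511 counts in the wild type, a ratio of 0.918 (0.867 to 0.971). HTR4 thus made up 20.9% of the H3.3 level in C3A and 31.7% in the wild type, and it was 1 of only 2 members that were lower in C3A. HTR4 and HTR5 are neighbours on the minus strand of chromosome 4, at chr4:18555532-18557106 and chr4:18557149-18558945 (TAIR10.1), with 42 bases between them. Their level ratio, HTR4 over HTR5, was 0.426 in C3A and 0.743 in the wild type, which is 0.574 times as high in C3A (0.536 to 0.615). All counts of the H3.3 genes were whole numbers in both libraries.

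The 5 H3.1 genes encode a single protein and so do the 3 H3.3 genes, as translated from the RefSeq coding sequences of TAIR10.1. The proteins are 136 residues long and differ by 4 substitutions, A31T, F41Y, S87H and A90L, counted from 1 at the residue after the initiator methionine, with the H3.1 residue first. The stretches below are the coding strands of codons 26 to 44 and 84 to 93 in HTR13 and HTR1, the H3.1 genes with the highest ratio and the highest level, and in the 3 H3.3 genes, and the capitals mark the codons of the differing residues. They are shown because the genes of a class can be told apart in sequencing only by silent differences and untranslated regions, while the proteins within a class cannot be told apart at all.
HTR13 codons 26 to 44: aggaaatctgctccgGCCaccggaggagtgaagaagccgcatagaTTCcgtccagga
HTR1 codons 26 to 44: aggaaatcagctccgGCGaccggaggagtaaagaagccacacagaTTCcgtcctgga
HTR4 codons 26 to 44: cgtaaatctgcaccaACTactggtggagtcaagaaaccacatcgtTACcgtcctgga
HTR5 codons 26 to 44: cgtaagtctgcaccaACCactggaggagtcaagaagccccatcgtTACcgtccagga
HTR8 codons 26 to 44: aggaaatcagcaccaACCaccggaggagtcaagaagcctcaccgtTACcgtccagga
HTR13 codons 84 to 93: tttcagagcAGTgctgttGCTgctttacaa
HTR1 codons 84 to 93: ttccagagcAGCgccgtcGCAgcacttcag
HTR4 codons 84 to 93: ttccagagcCATgctgtcTTAgctctccag
HTR5 codons 84 to 93: ttccagagcCATgctgtgCTTgcactccag
HTR8 codons 84 to 93: tttcagagtCACgcggtgTTAgctcttcaa

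With all genes summed, H3.3 was at 987 FPKM in C3A and 710.07 FPKM in the wild type, a ratio of 1.39, while H3.1 had a ratio of 2.02. The level of H3.3 over H3.1 was therefore 2.29 in C3A and 3.32 in the wild type, 0.688 times as high in C3A (0.647 to 0.732). Without HTR4 the same relation was 1.81 in C3A and 2.27 in the wild type, 0.797 times as high in C3A (0.747 to 0.850). The relation was thus lower in C3A with HTR4 and without it.

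H4, the partner of H3 in every core, was higher in C3A in all 8 genes, where 61.7% of all genes were higher. The 8 genes encode 1 protein of 103 residues. The median log2 ratio of H4 was 0.75, between 0.55 and 0.99, and the summed level was 521 FPKM in C3A against 306 FPKM in the wild type. AT5G59690, the most abundant H4 gene, was at 140.36 FPKM in C3A and 86.8 FPKM in the wild type, a ratio of 1.62 (1.48 to 1.77). AT3G53730, with whole counts of 830 in C3A and 430 in the wild type, had a ratio of 1.92 (1.71 to 2.16). AT3G46320 was at 54.3 FPKM in C3A and 26.8 FPKM in the wild type, a ratio of 2.03 (1.71 to 2.41). AT1G07660 had the lowest ratio of the 8, 1.49 (1.22 to 1.82), at 30.5 FPKM in C3A and 20.5 FPKM in the wild type. The 4 other genes had ratios between 1.55 and 1.76, with levels of 38.2 to 92.65 FPKM in C3A and 21.7 to 54.2 FPKM in the wild type. The level of H3.1 over H4 was 0.829 in C3A and 0.699 in the wild type, 1.19 times as high in C3A (1.1 to 1.27), so the S-phase forms did not differ by the same factor.

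The replication-dependent H2A genes were all at least 1.5-fold higher in C3A, where 18.6% of all genes were. Their median log2 ratio was 0.89, and their summed level was 199.66 FPKM in C3A against 112.04 FPKM in the wild type. HTA1 (AT5G54640) was at 42.4 FPKM in C3A and 19.7 FPKM in the wild type, a ratio of 2.15 (1.81 to 2.56). HTA13 (AT3G20670) was at 33.8 FPKM in C3A and 15.5 FPKM in the wild type, a ratio of 2.18 (1.75 to 2.73). These genes stood above HTA10 (AT1G51060), at 68.99 FPKM in C3A and 41.8 FPKM in the wild type, with a ratio of 1.65 (1.46 to 1.87). HTA2 (AT4G27230) had the lowest ratio of the 4, 1.56 (1.33 to 1.83), at 54.5 FPKM in C3A and 34.95 FPKM in the wild type.

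H2B, which pairs with H2A, had the highest summed level of the replication-dependent classes, 852 FPKM in C3A against 508 FPKM in the wild type. HTB2 (AT5G22880) was at 154 FPKM from 1534 counts in C3A and 72.6 FPKM from 721.06 counts in the wild type, a ratio of 2.12 (1.93 to 2.31). HTB3 (AT2G28720) was at 109.58 FPKM in C3A and 89.8 FPKM in the wild type, a ratio of 1.22 (1.12 to 1.32), the lowest of the 24 replication-dependent genes. The interval of HTB3 did not overlap that of any other H2B gene, and its share of the class was 12.9% in C3A and 17.7% in the wild type. HTB9 (AT3G45980), the most abundant H2B gene, was at 203 FPKM in C3A and 116 FPKM in the wild type, a ratio of 1.76 (1.62 to 1.90). HTB1, HTB4, HTB5 and HTB11 had ratios of 1.64 to 1.78, and their levels ran between 33.5 and 152 FPKM in C3A and between 19.7 and 91 FPKM in the wild type. The median log2 ratio of H2B was 0.74. The sum of all H2A forms over H2B was 0.767 in C3A and 0.787 in the wild type, a ratio of 0.975 whose interval (0.926 to 1.03) holds 1.

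Among the H2A variants, H2A.Z differed most. All 3 of its genes were at least 1.5-fold higher in C3A, where 18.6% of all genes were. Their median log2 ratio was 0.87, and their summed level was 187 FPKM in C3A against 101 FPKM in the wild type. HTA9 (AT1G52740), with 81.7% of the class in C3A and 82.7% in the wild type, was at 152 FPKM from 1514 counts in C3A and 83.2 FPKM from 822 counts in the wild type, a ratio of 1.83 (1.68 to 2.0). HTA11 (AT3G54560) was at 24.1 FPKM in C3A and 11.7 FPKM in the wild type, a ratio of 2.05 (1.65 to 2.57). HTA8 (AT2G38810) was the least abundant member, at 10.1 FPKM from 81 counts in C3A and 5.68 FPKM from 50 counts in the wild type. Its ratio of 1.78 had a wide interval (1.23 to 2.58). The deposited length of HTA8 was 687 bases in C3A and 755 bases in the wild type. On counts alone, as a share of each library, its ratio was 1.61 (1.12 to 2.34). The H2A.Z level over replication-dependent H2A was 0.935 in C3A and 0.898 in the wild type, with a ratio of 1.04 (0.933 to 1.16). H2A.Z thus had a ratio within counting error of that of the replication-dependent form, although it is classed as a variant.

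H2A.W and H2A.X had smaller ratios. HTA6 (AT5G59870), the main H2A.W gene, was at 92.2 FPKM in C3A and 57.4 FPKM in the wild type, a ratio of 1.61 (1.44 to 1.80). HTA7 (AT5G27670) was at 41.7 FPKM in C3A and 28.3 FPKM in the wild type, a ratio of 1.48 (1.28 to 1.71). HTA12 (AT5G02560; chr5:575225-577216, plus strand, TAIR10.1) was lower, at 14.8 FPKM from 201.99 counts in C3A and 19.2 FPKM from 238 counts in the wild type, a ratio of 0.771 (0.636 to 0.934). Its deposited length was 1144 bases in C3A and 1048 bases in the wild type, and on counts alone, as a share of each library, its ratio was 0.844 (0.696 to 1.02), so a lower count of HTA12 in C3A was not resolved at this depth. HTA12 also overlaps the H2B gene HTB10 (AT5G02570) on the opposite strand, and the sources used here do not say whether counting used strand.

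H2A.X, the form phosphorylated at DNA breaks, was at 119 FPKM in C3A and 82.5 FPKM in the wild type when its genes are summed. HTA3 (AT1G54690) was at 46.9 FPKM in C3A and 29.7 FPKM in the wild type, a ratio of 1.58 (1.36 to 1.84). HTA5 (AT1G08880) was at 71.95 FPKM in C3A and 52.9 FPKM in the wild type, a ratio of 1.36 (1.23 to 1.5). Relative to replication-dependent H2A, H2A.X was 0.808 times as high in C3A (0.722 to 0.905) and H2A.W 0.796 times as high (0.713 to 0.889), so both lay below 1 where H2A.Z did not.

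The linker histone had the lowest median log2 ratio of the 9 classes, 0.42. H1.1 (AT1G06760) was at 229 FPKM from 3175 counts in C3A and 147 FPKM from 2028 counts in the wild type, a ratio of 1.56 (1.47 to 1.65). H1.2 (AT2G30620) was at 145 FPKM in C3A and 108 FPKM in the wild type, a ratio of 1.34 (1.27 to 1.42). H1.3 (AT2G18050), a short form known to be induced by drought and low light, was at 105 FPKM in C3A and 90.6 FPKM in the wild type, a ratio of 1.16 (1.05 to 1.27). After rescaling to the median gene, the log2 ratio of H1.3 was 0.05, close to no difference. H1 over the summed core histones was 0.139 in C3A and 0.162 in the wild type, 0.859 times as high in C3A (0.826 to 0.894).

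**Figure D3:**
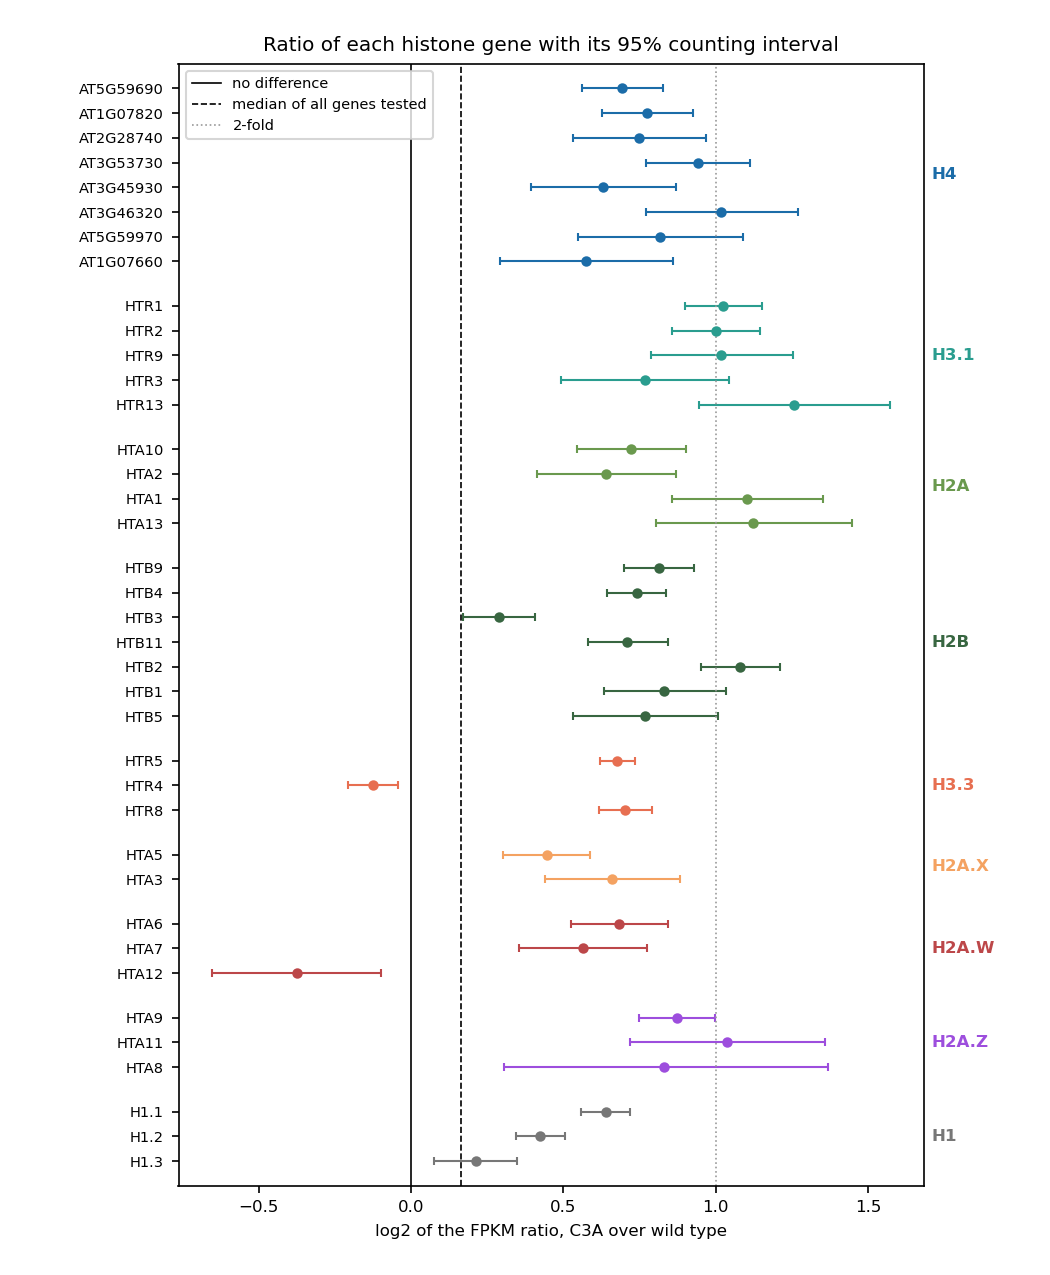
The log2 of the FPKM ratio, C3A over wild type, for each of the 38 histone genes by class, with bars for the 95% counting interval. The solid line marks no difference, the dashed line the median of all genes and the dotted line 2-fold, and only HTR4 and HTA12 lie left of the solid line.

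Set against each other, all 24 replication-dependent genes were higher in C3A, with a median log2 ratio of 0.78, and 22 of them were at least 1.5-fold higher. Of the 11 variant genes 9 were higher, with a median of 0.67, and 7 were at least 1.5-fold higher. The 5 members at least 2-fold higher on the FPKM + 1 scale, HTR1, HTR13, HTA1, HTA13 and HTB2, are replication-dependent. On the plain FPKM ratio HTR2, HTR9, AT3G46320 and the H2A.Z variant HTA11 also reached 2-fold, with ratios of 2.0 to 2.05, so this split rests on the scale. The medians of the groups differed by 0.10, which is small beside the range within either group, between 0.28 and 1.2 for replication-dependent genes and between -0.35 and 0.98 for variants. Counted as variants in the narrow sense, H3.3 and H2A.Z alone, the difference was 0.06. The contrast was larger on summed levels, where abundant genes weigh more. Replication-dependent histones summed to 2004 FPKM in C3A and 1140 FPKM in the wild type, a ratio of 1.76, and variants to 1441 FPKM in C3A and 998 FPKM in the wild type, a ratio of 1.44. Variant over replication-dependent level was 0.719 in C3A and 0.876 in the wild type, 0.821 times as high in C3A (0.794 to 0.849). Within the variants the sums were lowered by single genes: without HTR4 the H3.3 ratio was 1.61, and without HTA12 the H2A.W ratio was 1.56. HTR4, HTA12 and HTB3, named after their values were seen, had log2 ratios of -0.12, -0.35 and 0.28, against class medians of 0.67, 0.55 and 0.74. Being picked as extremes, these genes cannot be weighed against a difference of group medians, and HTA12 was not resolved on counts alone.

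**Figure D4:**
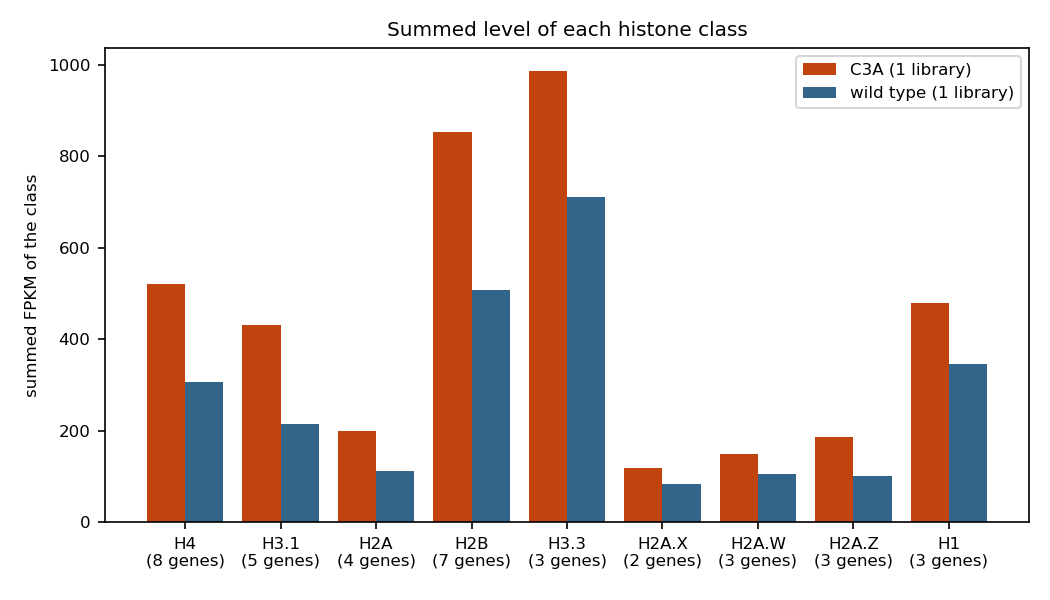
Summed FPKM of each histone class, with the C3A library left of the wild type library and the number of genes under each class; there are no error bars, since each bar is 1 library. The C3A bar is higher in all 9 classes, most by ratio for H3.1 (432 FPKM in C3A against 214 FPKM in the wild type).

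Several histone genes encode identical or similar proteins, and 19 of the 38 members had a fractional count in at least 1 library (tolerance 1e-09). For 5 pairs, found after their values were seen, the fractional counts added up to whole sums in both libraries (tolerance 0.011). A division of shared reads between the genes of a pair would give this pattern, which was not tested. AT3G45930 and AT3G46320, whose reference transcripts share stretches of 150 bases, had 380.62 and 406.38 counts in C3A and 244.46 and 199.54 counts in the wild type. Their sum was 787 counts in C3A and 444 counts in the wild type, a share ratio of 1.76 (1.57 to 1.99), between their separate ratios. HTA10 and HTA13 summed to 944 counts in C3A and 531 counts in the wild type, a share ratio of 1.77 (1.59 to 1.97). The 2.18 of HTA13 alone may thus depend on how any shared reads were divided, although the reference transcripts of HTA10 and HTA13 share no stretch of 150 bases. The other pairs, AT1G07660 with AT1G07820, AT5G59690 with AT5G59970 and HTB9 with HTB11, had summed share ratios of 1.65, 1.64 and 1.70. Nor do the reference transcripts of these pairs share a stretch of 150 bases. HTR1, HTR2, HTR13, HTR4, HTR5, HTR8, HTA1, HTA9 and the H1 genes had whole counts in both libraries, so no such division shows in their values.

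The classes also differ in gene structure, which the choice of members did not use. A single coding exon is annotated for 20 of the 24 replication-dependent genes and for none of the 11 variants, the exceptions being the 4 replication-dependent H2A genes, which have 2 coding exons each. Protein identity within a class, computed from RefSeq translations, is 100% for H4, H3.1 and H3.3, 92.4% to 95.4% for H2A, 82% to 97.3% for H2B, 98.6% for H2A.X, 71.9% to 76.7% for H2A.W, 79.4% to 90.4% for H2A.Z and 27.5% to 63.9% for H1. HTA12, at 153 residues, belongs to the H2A.W class of lower identity. Within 20000 bases of another member lie 14 members, in 6 runs. Neighbours could differ in ratio: HTB3 and the H4 gene AT2G28740, 1536 bases apart on opposite strands, had ratios of 1.22 and 1.68, and HTR4 and HTR5 had 0.918 and 1.60. HTR13 and HTR9, 577 bases apart, had 2.39 and 2.03. Another annotated gene overlaps 8 members, on the opposite strand for 7 of them (HTA13, HTA3, HTA12, HTA9, HTB9, H1.1 and H1.2), whose values are uncertain without the use of strand.

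Plant histone promoters are known for short shared elements, and 4 kinds were searched on both strands in a window of 300 bases, 250 before and 50 after the annotated start, of 27443 protein-coding genes in TAIR10.1. They were the octamer CGCGGATC, the hexamer ACGTCA, the nonamer CATCCAACG and sites of the S-phase factor E2F in the forms TTTCCCGC, TTTGGCGC, TTTGCCGC and TTTCGCGC. Matches of different kinds overlapped in no member. The octamer was found in 10 of the 38 members, against 0.146% of all promoters, so the members are 10 of the 40 promoters that hold it. It was in 3 of 5 H3.1, 2 of 4 H2A and 2 of 8 H4 promoters, in HTR5, HTA6 and H1.1, and in no H2B promoter. The hexamer was found in all 7 H2B promoters and in 11 members altogether, against 9.19% of all promoters, and in HTB4 it lies inside the gene, at 40 to 45 bases from the start. E2F forms were in AT3G45930, AT3G46320 and HTB2, 3 of 38 members, against 1.76% of all promoters, and the nonamer was in no member, against 0.171% of all promoters. A match describes these letters and no more.

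The stretches below are taken from RefSeq TAIR10.1, read 5′ to 3′ on the strand of the gene and ending at the base before its annotated start, and capitals mark the matches. HTR2 (chr1:2972335-2972584, minus strand) and HTA10 (chr1:18926561-18926810, plus strand) are the members with 2 octamers, the second of HTA10 as the reverse complement GATCCGCG. HTB2 (chr5:7652715-7652964, minus strand) is the H2B gene with the highest ratio and holds a hexamer and an E2F form, with a further hexamer just inside the gene that is not printed. HTR5 (chr4:18558946-18559095, minus strand) is the one H3.3 gene with the octamer, again as the reverse complement.
HTR2: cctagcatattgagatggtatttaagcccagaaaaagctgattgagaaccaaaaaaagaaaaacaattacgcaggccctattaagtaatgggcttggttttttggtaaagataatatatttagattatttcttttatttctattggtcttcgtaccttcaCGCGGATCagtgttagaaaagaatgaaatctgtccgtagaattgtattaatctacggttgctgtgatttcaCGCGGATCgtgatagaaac
HTA10: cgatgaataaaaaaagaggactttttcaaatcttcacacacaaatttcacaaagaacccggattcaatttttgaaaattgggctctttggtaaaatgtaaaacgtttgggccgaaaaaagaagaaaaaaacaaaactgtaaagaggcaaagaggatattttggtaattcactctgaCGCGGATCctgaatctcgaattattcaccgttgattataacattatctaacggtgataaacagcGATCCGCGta
HTB2: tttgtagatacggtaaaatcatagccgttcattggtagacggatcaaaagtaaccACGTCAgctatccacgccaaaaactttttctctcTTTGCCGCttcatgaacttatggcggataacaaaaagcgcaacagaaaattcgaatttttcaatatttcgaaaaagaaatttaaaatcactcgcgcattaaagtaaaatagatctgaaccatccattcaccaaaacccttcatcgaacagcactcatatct
HTR5: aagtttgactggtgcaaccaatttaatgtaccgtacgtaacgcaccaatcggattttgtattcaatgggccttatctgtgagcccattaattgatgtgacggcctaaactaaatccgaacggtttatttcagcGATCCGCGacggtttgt

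Members with the octamer had a median log2 ratio of 0.70 (n = 10), members with the hexamer 0.74 (n = 11) and members with neither 0.69 (n = 18). Within the replication-dependent genes the medians were 0.99 with the octamer (n = 7), 0.75 with the hexamer (n = 10) and 0.85 with neither (n = 8), and HTR9 holds both elements. The octamer or the hexamer was in 16 of the 24 replication-dependent genes and 3 of the 11 variants, against 9.32% of all promoters. HTR13, with the highest ratio of the members, held none of the 4 kinds, and neither did HTR4 or HTA12, which were lower in C3A. Most of the HTR4 window (chr4:18557057-18557356) lies inside the neighbouring gene HTR5, with 42 bases between the genes.

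**Figure D5:**
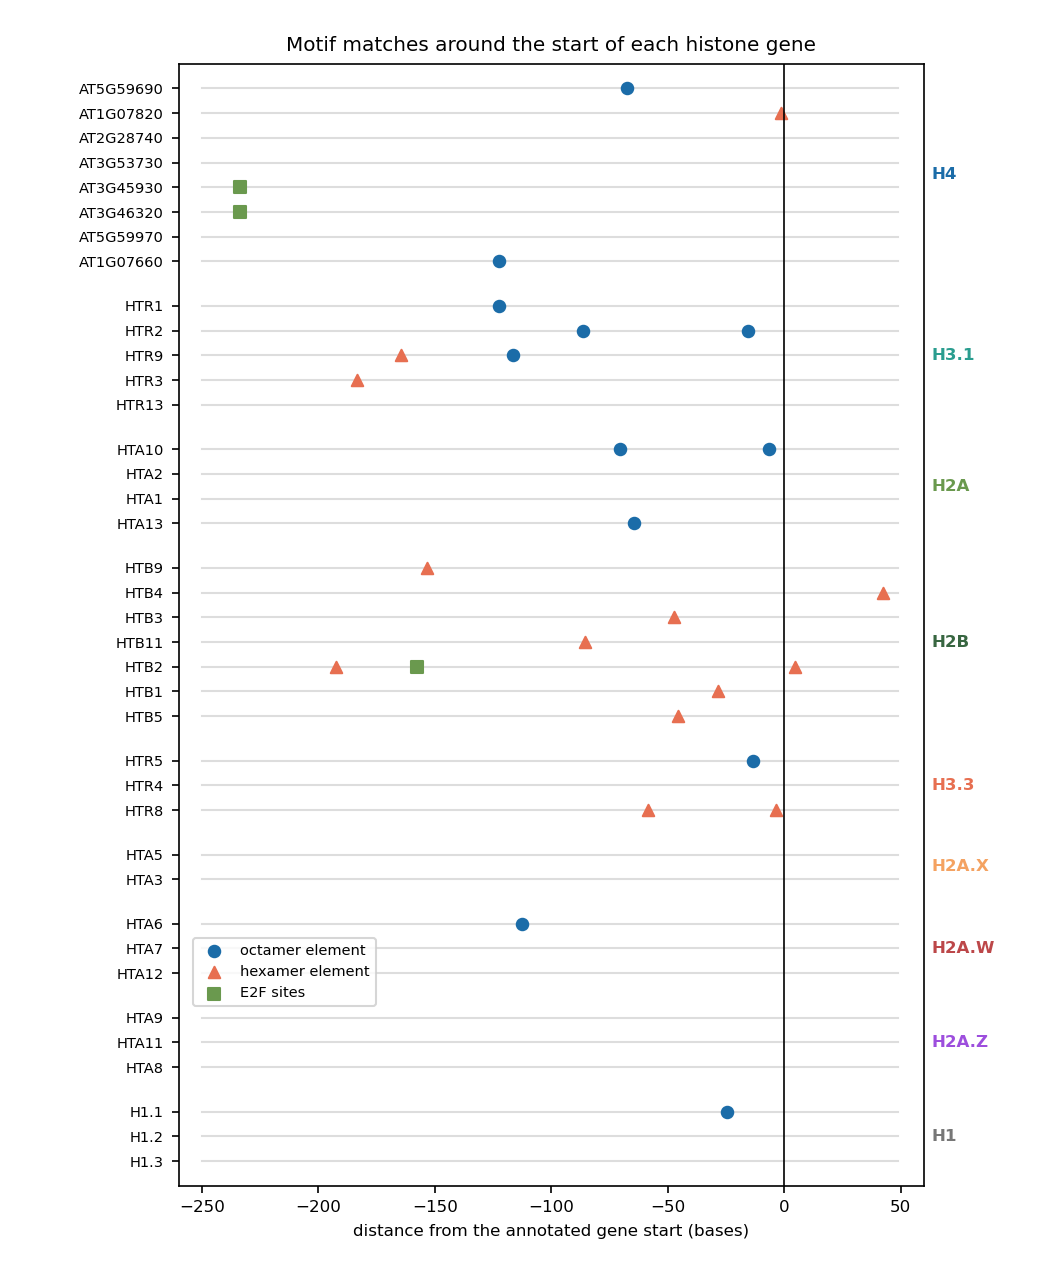
Positions of octamer, hexamer and E2F matches from 250 bases before to 50 bases after the annotated start of each of the 38 histone genes, 1 row per gene, with the start at 0. Hexamers lie in all 7 H2B rows and octamers in 10 rows of the H4, H3.1, H3.3, H2A, H2A.W and H1 classes.

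Of 11 further histone genes outside the 38, 5 passed the filter. HTR12 (AT1G01370), which encodes the centromeric H3 that marks centromeres in dividing cells and is named after its value was seen, was at 5.12 FPKM from 74 counts in C3A and 3.07 FPKM from 41 counts in the wild type, a ratio of 1.67 (1.12 to 2.51). HTB6 was at 6.8 FPKM in C3A and 3.64 FPKM in the wild type. HTB7 was at 3.79 FPKM in C3A and 1.62 FPKM in the wild type, and HTB10 at 1.84 FPKM from 11 counts in C3A and 0.67 FPKM from 4 counts in the wild type. HTA4 (AT4G13570), annotated as a further H2A gene, was the exception at 4.15 FPKM from 37 counts in C3A and 21.5 FPKM from 152 counts in the wild type, 5.18-fold lower in C3A, with a ratio of 0.193 (0.131 to 0.278). The deposited length of HTA4 was 759 bases in C3A and 613 bases in the wild type, and its ratio on counts alone was 0.242. HTR10 and HTR15 were listed in neither library.

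Histone chaperones carry new histones and place them on DNA. Of 25 chaperone and deposition genes 24 passed the filter, 18 of them higher in C3A, where 61.7% of all genes were, and 6 lower, with a median log2 ratio of 0.30, against 0.73 for the histones and 0.14 for all genes. At least 1.5-fold higher was 1 of the 24, against 18.6% of all genes. It was NASP, a carrier of H3 with H4, at 16.7 FPKM in C3A and 10.3 FPKM in the wild type. The H3 and H4 chaperone ASF1A was at 13.8 FPKM in C3A and 9.4 FPKM in the wild type. The H2A and H2B chaperones NAP1;2 and NRP1 were at 87.01 and 73.6 FPKM in C3A against 61.3 and 51.3 FPKM in the wild type. No gene of this list was at least 1.5-fold lower on the FPKM + 1 scale, against 8.9% of all genes. Among the lower genes, named after their values were seen, UBN2 was at 1.4 FPKM in C3A and 2.37 FPKM in the wild type, a plain ratio of 0.591 (0.397 to 0.869), which is 1.69-fold lower. PIE1, a subunit of the complex that places H2A.Z, was at 5.53 FPKM in C3A and 7.39 FPKM in the wild type, a ratio of 0.748 (0.662 to 0.845). PIE1 alone does not describe H2A.Z deposition as a whole. Of other deposition genes in the list, ARP4 was higher in C3A, with a ratio of 1.31 (1.14 to 1.497). SEF had a ratio of 1.21 (0.805 to 1.81) and ARP6 0.91 (0.756 to 1.095), and both intervals hold 1.

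DNA replication genes, which act in the same phase of the cell cycle as the replication-dependent histones, had a median log2 ratio of 0.06 over 15 genes. At least 1.5-fold higher in C3A were 4 of the 15, against 18.6% of all genes, and none was at least 1.5-fold lower on the FPKM + 1 scale, against 8.9%. PCNA1 and PCNA2, the sliding clamps of DNA polymerase, were at 17.7 and 16.8 FPKM in C3A against 9.62 and 10.6 FPKM in the wild type. CDT1A, which licenses replication origins, was at 8.03 FPKM in C3A and 4.61 FPKM in the wild type. TSO2, a subunit of ribonucleotide reductase, was at 38.02 FPKM in C3A and 23.7 FPKM in the wild type. Of the 15 genes, 12 were higher in C3A, where 61.7% of all genes were, and 3 lower. Among genes named after their values were seen, MCM2, MCM3, MCM4, MCM5 and MCM6 had log2 ratios of 0.06, 0.05, 0.03, 0.05 and -0.10. MCM7 was higher in C3A, with a log2 ratio of 0.34. RNR1 and E2FC were also higher, below 1.5-fold, with log2 ratios of 0.52 and 0.49. E2FB and E2FA had log2 ratios of 0.03 and -0.004. CDC6 was at 1.31 FPKM from 29 counts in C3A and 2.13 FPKM from 42 counts in the wild type. Its plain ratio was 0.615, which is 1.63-fold lower, with a counting interval that holds 1. The replication list was therefore mixed, with 4 genes in the range of the H4 genes and a median below that of all genes.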

How the data were processed

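RNA of untreated rosettes was sequenced in 1 C3A library and 1 wild type library, with paired ends of 150 bases on a BGI machine, per the labels. Trimmomatic 0.36, HISAT and TAIR10 are named in the submitters' processing notes, and the sources used here name neither a quantification tool nor a use of strand. Per the file headers, the deposited tables hold FPKM, gene length and estimated (expected) count, and they list only genes above 0. The deposited expected counts were whole for 88.9% of C3A genes and 89.1% of wild type genes (tolerance 1e-09). For genes with 1 transcript, 12261 in C3A and 12083 in the wild type, the deposited length was that of the TAIR10.1 transcript (tolerance 0.01).

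The members and gene lists were chosen with earlier results of these data known, although the rule for members is by locus and uses no measured value. Differences are log2 ratios of C3A to wild type on the FPKM + 1 scale, for genes that reach 1 FPKM in a library, an unlisted gene being 0. This scale understates the difference of low genes. Ratios of single genes are plain FPKM ratios, and their exact 95% Clopper-Pearson intervals come from the rounded expected counts. Share ratios of summed counts used the same interval. Relations between classes, and of HTR4 over HTR5, used the normal-approximation interval of the sample odds ratio of rounded counts, scaled to the FPKM relation. Without molecular identifiers reads are not independent molecules, so intervals cover counting error only. Calls of at least 1.5-fold or 2-fold are descriptions of these libraries, since 1 library per genotype allows no test and no p-value.

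Named were all 38 members, PBL19 and, of each further list, up to 4 genes with the largest ratio in either direction among those past the filter. Further genes of these lists were named after their values were seen, as stated with them. The leaf and root genes were a check of the tissue. Coordinates, exons, coding sequences, translations and promoters come from RefSeq TAIR10.1. Alternatives were a rescaling to the median ratio, a rescaling without the 100 most abundant genes, TMM (trimmed mean of M values) factors from edgeR, a pseudocount of 0.1, other filters, unlisted genes at 3 counts and members with whole counts only. The calculations used python 3.11.15, pandas 2.3.3, numpy 2.4.6, scipy 1.17.1, matplotlib 3.10.9, Biopython 1.88, R 4.3.3 and edgeR 4.0.16, and were tested on simulated data.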

Additional observations from a re-analysis of the deposited data

How the results depend on the processing

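Every rescaling that moves the median gene toward no difference moved the histone counts with it. Of the 38 members, 30 were at least 1.5-fold higher in C3A as deposited (18.6% of all genes), 16 with TMM factors (13.8%), 16 with a median ratio of 1 (13.2%) and 15 of 19 with whole counts only (18.1%). At least 2-fold higher were 5 as deposited (7.89% of all genes), 1 with TMM factors (6.52%), 1 with a median ratio of 1 (6.14%), 1 when rescaled without the 100 most abundant genes (7.01%), 3 of 19 with whole counts only (7.41%) and 8 with a pseudocount of 0.1 (10.6%). With each of these 3 rescalings, 1 of 38 members (2.63%) lay below the share of all genes, so more members past 2-fold than in the background is not a result that holds across scalings. No member was at least 2-fold lower under any of these settings. Class medians of the log2 ratio are given here in the order median ratio of 1, without the 100 most abundant genes, and TMM. They were 0.59, 0.62 and 0.59 for H4, 0.83, 0.87 and 0.83 for H3.1, and 0.73, 0.76 and 0.73 for H2A. They were 0.58, 0.62 and 0.59 for H2B, 0.51, 0.54 and 0.52 for H3.3, and 0.38, 0.41 and 0.39 for H2A.X. They were 0.39, 0.42 and 0.40 for H2A.W, 0.70, 0.74 and 0.71 for H2A.Z, and 0.26, 0.29 and 0.27 for H1. With whole counts only, the medians were 0.83 for H4 and 0.67 for H2A.W, and no H2B gene was left. Whole meant within 1e-09, so this setting also dropped genes with nearly whole counts. Examples are HTB4 with 2341.99 counts in C3A, HTB5 with 232.99 in the wild type and HTA12 with 201.99 in C3A. The difference of medians, replication-dependent minus variant, was 0.10 as deposited, 0.28 on summed FPKM and 0.31 with whole counts only, where fewer genes enter. In every setting that kept all members, 36 were above 0, and HTR4 and HTA12 were below 0. A filter of 10 FPKM and leaving out HTR4 and HTA12 were chosen after seeing the data, and neither moved a count of calls by over 1.5 times. No paired analysis was possible because each genotype has 1 library, and for the same reason no library could be left out. Depth limits the genes with the fewest counts, such as HTB10 with 11 counts in C3A and 4 in the wild type and HTB7 with 33 in C3A and 14 in the wild type, and HTA8 among the members.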
